A study of Mus musculus with 18 samples.

Results

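Cytoplasmic dynein 1 and its cofactor dynactin were followed through 9 of their genes, taken by symbol from the 39017 genes counted in mouse entorhinal cortex: the heavy chain Dync1h1, the intermediate chains Dync1i1 and Dync1i2, the light intermediate chains Dync1li1 and Dync1li2, the dynactin subunits Dctn1, Dctn2 and Dctn4, and the cofactor Pafah1b1. The gene models of these 9 genes hold 287 of the 355320 exon bins counted, a bin being a stretch of exon that the same set of transcripts shares. The complex was chosen by a measured value, the higher level of Dync1h1 in the Ptbp1 shRNA libraries in an earlier look at the same data. The level of Dync1h1 in the silencing experiment is therefore described below without a test and supports nothing.

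RNA was purified with translating ribosomes (TRAP, which pulls down tagged ribosomes with the mRNA they carry) from layer II neurons of the entorhinal cortex, 1 library per mouse, with the cortices of both sides pooled. Ptbp1 is an RNA-binding protein that keeps many exons out of mRNA and is largely replaced in neurons by Ptbp2. The silencing experiment has 4 libraries of mice given a Ptbp1 shRNA vector and 5 of mice given a scrambled shRNA vector, and the overexpression experiment has 5 libraries with a Ptbp1 vector and 4 with a control vector. All 4 vectors carry mCherry, and the submitters left out 1 mouse of the Ptbp1 shRNA group and 1 of the control vector group because no mCherry reads were found. The labels give no strain, genotype, age, sex or time after injection, and do not name the promoter behind the ribosome tag. The tissue label reads hippocampus, while the title and design name the entorhinal cortex.

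Cytoplasmic dynein 1 is the motor that carries cargo towards the minus ends of microtubules, which in an axon means from the terminal back to the cell body. A pair of heavy chains hydrolyses ATP and walks, the intermediate and light intermediate chains join the motor to dynactin and to cargo adaptors, and dynactin makes the motor processive. In neurons the complex returns signalling endosomes, autophagosomes and mitochondria to the soma, and PAFAH1B1 (LIS1) helps to assemble the active motor.

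Several of these genes have short alternative exons, and the ones followed here by read counts are shown because the splicing comparisons below turn on them. Sequences are from GENCODE release M21 transcripts on build mm10, 5′ to 3′ in the transcript. Capitals mark the alternative bin, and the small letters are the 6 neighbouring bases on each side in a transcript that includes it. Their lengths are multiples of 3, so inclusion keeps the reading frame. Dync1i2 bin 014 lies in coding sequence at chr2:71227827-71227844, and Dctn1 bins 011, 013 and 014 at chr6:83183936-83183956, chr6:83186428-83186445 and chr6:83187764-83187784, all on the plus strand. Bin 013 of Dctn1 is an exon of its own in some transcripts, which give the letters printed here, and in 1 other it ends the first exon that begins with bin 012.
Dync1i2 bin 014: ctattgTTTTTTCTGAGTACTGGGtccctc
Dctn1 bin 011: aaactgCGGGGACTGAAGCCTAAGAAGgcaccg
Dctn1 bin 013: aagaagGCACCGACAGCCCGAAAGaccaca
Dctn1 bin 014: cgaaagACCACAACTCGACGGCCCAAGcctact

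The intermediate chain genes also share a coding exon of 60 bases that some transcripts skip, bin 013 of Dync1i1 at chr6:5784439-5784498 and bin 017 of Dync1i2 at chr2:71233649-71233708, both on the plus strand. They are set side by side here, with capitals where both genes have the same base. The paralogs agree at 46 of the 60 positions (76.7%).
Dync1i1 bin 013: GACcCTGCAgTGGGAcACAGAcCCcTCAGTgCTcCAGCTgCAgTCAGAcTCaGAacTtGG
Dync1i2 bin 017: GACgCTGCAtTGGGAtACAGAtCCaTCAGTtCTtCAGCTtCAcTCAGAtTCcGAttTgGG

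Total gene counts per library ranged from 34339355 to 46544178 in silencing and from 18288627 to 39056655 in overexpression. Coverage was less even in silencing. The share of the 56285 well-covered bins (mean count 50 or more) that had no read was 1.24 to 8.30% per library there, and 0.0213 to 0.0551% in the other experiment. Ptbp1 itself averaged 5.09 ± 6.10 CPM with the Ptbp1 shRNA and 4.10 ± 3.76 with the scrambled shRNA (SD, n = 4 and 5; log2 fold change 0.31, SE 1.27, adjusted p = 0.961 by edgeR's quasi-likelihood test), so the labels of the silencing libraries are not checked by their target. In overexpression it rose from 13.3 ± 3.03 to 137 ± 14.9 CPM (log2 fold change 3.36, SE 0.15, adjusted p = 5.48e-08). CPM is a count scaled to library size, with TMM factors set within each experiment, so levels of both experiments stand side by side without a test. Markers of superficial excitatory neurons summed to 2267 to 5945 CPM and hippocampal markers to 6.80 to 42.2 CPM. Camk2a alone averaged 1456 to 2725 CPM per group, and sums of unlike lists do not tell the tissues apart.

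None of the 9 genes passed an adjusted p of 0.05 in silencing, where 0% of the 14656 genes tested did, nor in overexpression, where 0.0425% of 16480 did (edgeR's quasi-likelihood test, adjusted over all genes). For Dync1h1 the silencing call is no test, since its level there chose the set. All 9 passed the filter on low counts in both experiments. In silencing 6 of the 9 had a higher mean with the Ptbp1 shRNA and the median log2 fold change was 0.11, beside 0.03 over all genes, of which 51.2% were higher. In overexpression 3 of the 9 were higher and the median was -0.03, beside -8.0e-05 over all genes. The overexpression groups overlapped for each of the 9, while they lay apart for 1.81% of all genes (1.13% higher and 0.686% lower), and none of the 9 had an unadjusted p under 0.05, beside 4.78% of all genes. The biological coefficient of variation from edgeR's common dispersion, shared by all genes, was 0.901 in silencing and 0.223 in overexpression. The silencing comparison thus resolves only large changes.

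**Figure D1:**
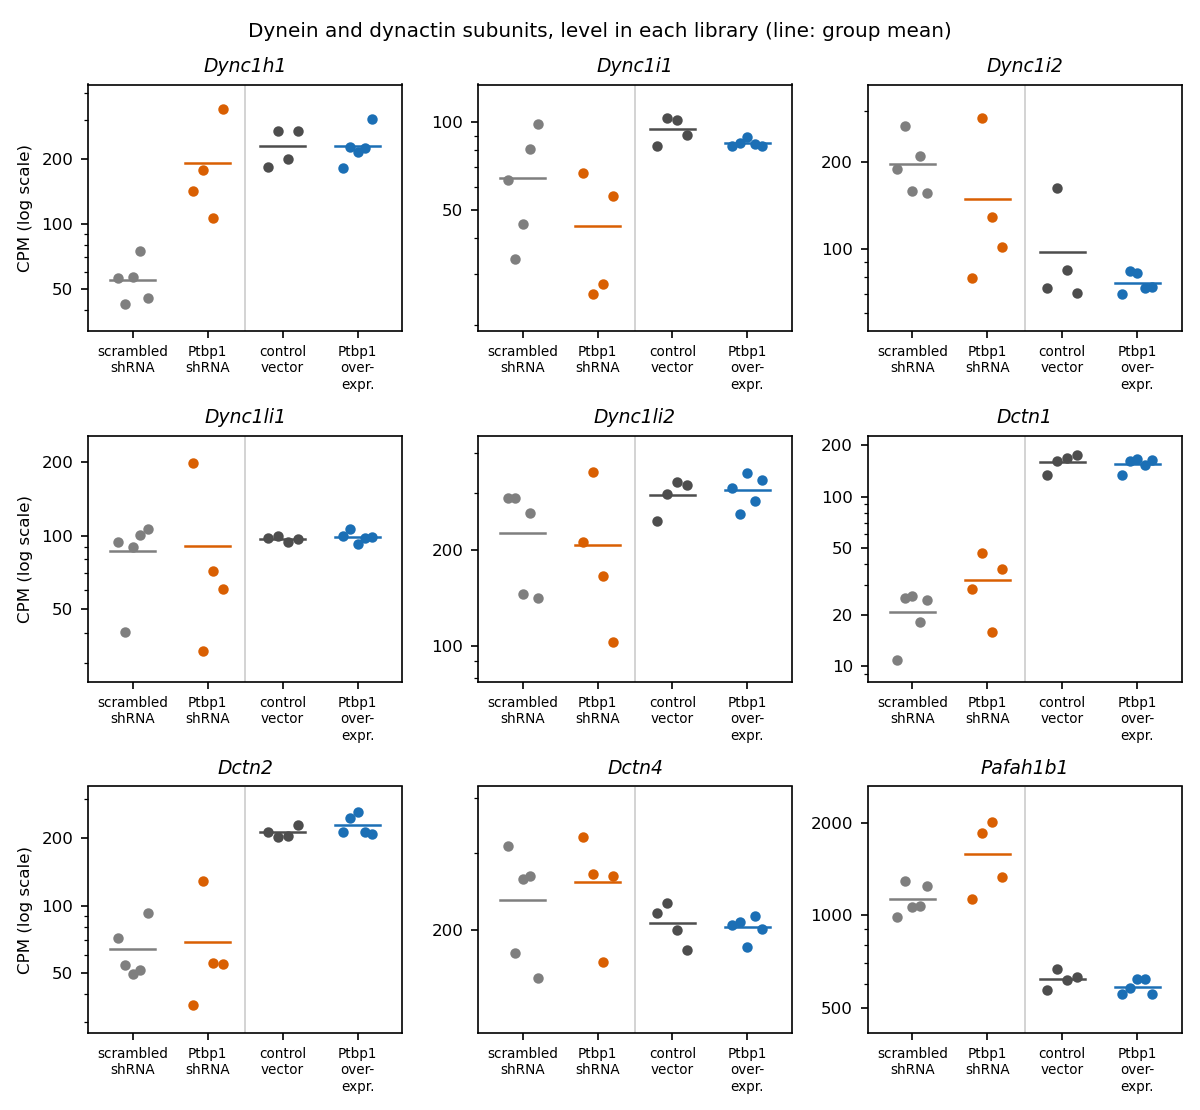
Level of each of the 9 genes in every library, as CPM on a log axis, by group; points are libraries (1 mouse each) and lines are group means. Dync1h1 lies between 42.7 and 74.7 CPM with the scrambled shRNA and between 106 and 338 CPM with the Ptbp1 shRNA, while both overexpression groups overlap for all 9 genes.

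Dync1h1 (ENSMUSG00000018707, chr12:110601452-110666945, plus strand) encodes the heavy chain, which holds the ring of ATPase domains and the stalk that grips the microtubule. With the scrambled shRNA it stood at 55.9, 42.7, 56.9, 74.7 and 45.5 CPM in replicates 1 to 5. With the Ptbp1 shRNA it stood at 141, 177, 106 and 338 CPM in replicates 1 to 4. Every Ptbp1 shRNA library was above every scrambled one, replicate 4 most of all, and the means differed 3.46-fold (log2 fold change 1.79, SE 0.34). It was the 1 gene of the 9 whose silencing groups did not overlap, which held for 4.84% of all genes (2.39% with the Ptbp1 shRNA higher). Leaving out each library in turn gave log2 fold changes of 1.36 to 1.99, the lowest without Ptbp1 shRNA replicate 4.

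In overexpression Dync1h1 stood at 183, 268, 200 and 267 CPM with the control vector and at 181, 226, 214, 223 and 305 CPM with the Ptbp1 vector. These groups overlapped, and the log2 fold change was -0.00098 (SE 0.15, 95% interval -0.32 to 0.32, adjusted p = 1.00 by edgeR). Changes within this interval remain possible. The silencing value chose the set, so the interval is not set against it. The difference between both responses, overexpression minus silencing, was -1.79 on the log2 scale (SE 0.37), which carries the silencing values and so is again a description. None of the other 8 genes passed the threshold for this difference, where 0.225% of 17779 genes did. Their adjusted p ran from 0.199 (Pafah1b1, difference -0.56, SE 0.21) to 1.00 by edgeR.

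The reads of Dync1h1 were spread along 14342 bases of coding and untranslated exon in 86 bins. In silencing the mean was higher with the Ptbp1 shRNA in 75 of the 86 bins and lower in 11, and in overexpression it was higher with the Ptbp1 vector in 31 and lower in 55. When the gene was split into 3 stretches of about equal length, the first summed to 50.4 to 110 CPM with the Ptbp1 shRNA and 5.44 to 34.3 CPM with the scrambled shRNA. The last stretch gave 51.2 to 150 CPM against 7.11 to 43.0 CPM, and the middle one 3.80 to 95.5 against 0.422 to 19.9 CPM. The groups were apart at both ends of the gene and overlapped in the middle, with log2 differences of 2.08, 1.34 and 1.68 in that order. These bins and stretches divide up the silencing level that chose the set, so their values are a description and no further evidence. In overexpression the same stretches differed by -0.06, -0.14 and 0.07.

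**Figure D2:**
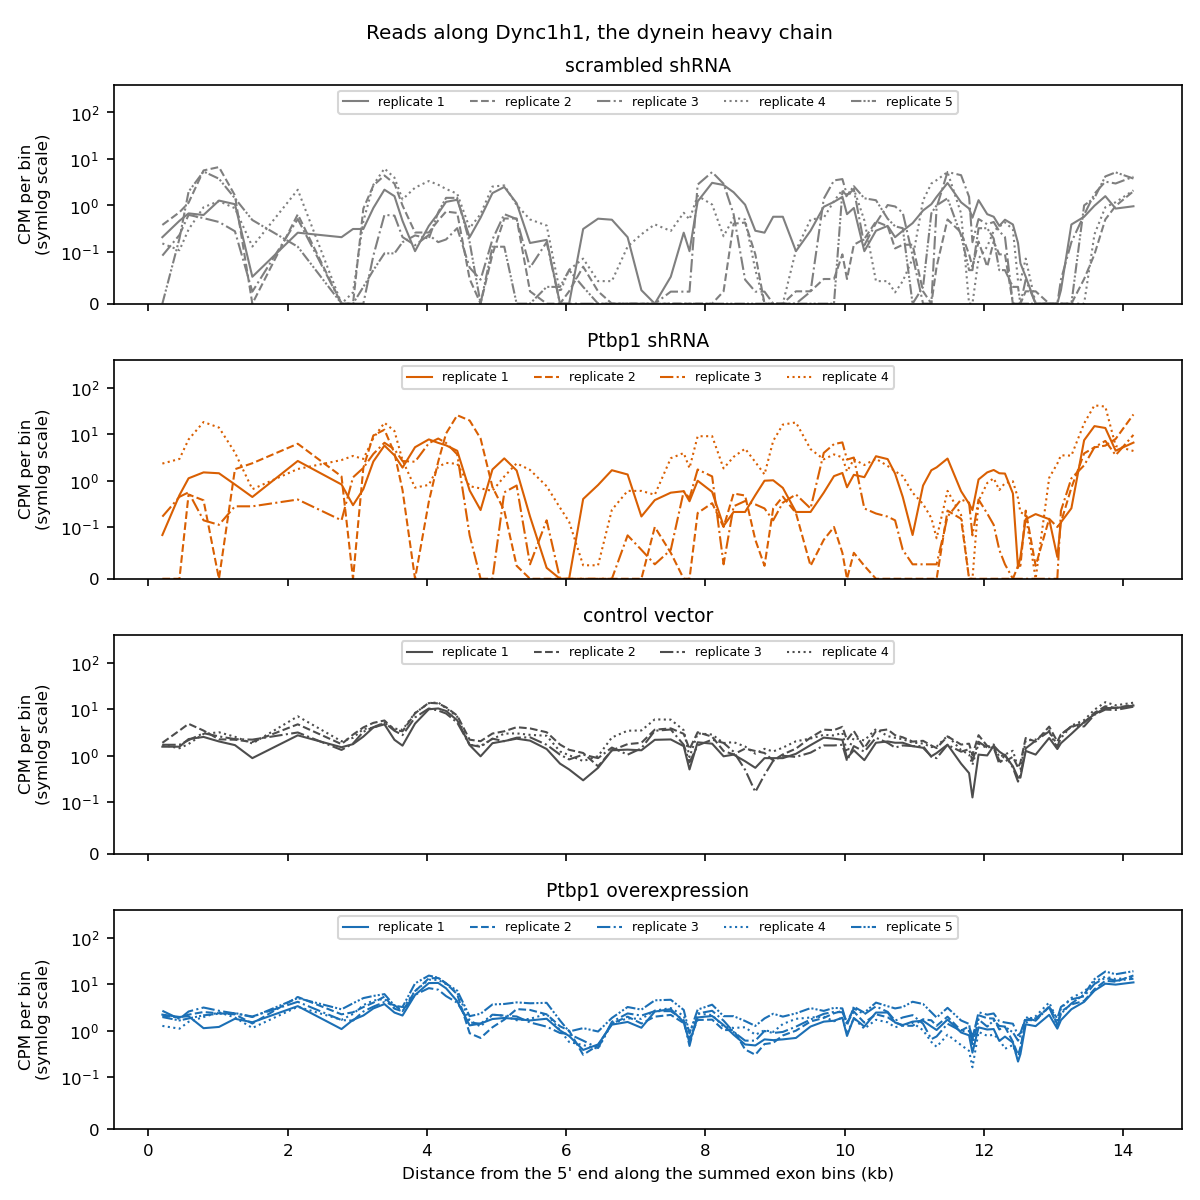
CPM per exon bin of Dync1h1 (vertical axis, logarithmic above 0.1 CPM and linear below it) against the distance from the 5′ end along the summed bins in kb, 1 panel per group and 1 line per library. Lines of both overexpression panels run together, whereas single silencing libraries drop to 0 over stretches that other libraries of the same group cover.

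Coverage of the heavy chain was patchy in silencing. Of its 86 bins, 6 to 35 were at 0 in a scrambled shRNA library, 2 to 33 in a Ptbp1 shRNA library and 0 in each overexpression library. The bin with the most reads held 16.4% of the gene's reads in Ptbp1 shRNA replicate 2 (bin 092, the 3′ end) and 16.5% in scrambled shRNA replicate 2 (bin 005, near the 5′ end), but 4.79 to 6.53% in the overexpression libraries. Without Ptbp1 shRNA replicate 2 and scrambled shRNA replicate 5, which had the most well-covered bins at 0 in the series, the log2 fold change was 1.77. That pair was chosen after the data were seen, and the remaining 7 silencing libraries still had 2 to 26 of the 86 bins at 0. The part of uneven coverage in the level of Dync1h1 was not tested.

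Other measures were compared between the silencing groups. Of the share and the sums below, only the excitatory neuron sum lay apart, and the ranges of the rest overlapped. Mitochondrially encoded genes took 0.527 to 0.949% of the counts in the Ptbp1 shRNA libraries and 0.184 to 0.537% in the scrambled ones. The summed level of 10 markers of superficial excitatory neurons was 2267 to 3376 CPM with the Ptbp1 shRNA and 4121 to 5945 CPM with the scrambled shRNA, 8 of the 10 being lower and none at 0. Of the astrocyte markers, 5 of 8 tested were lower and 3 higher (Gfap, Aqp4 and Aldoc). The whole list summed to 404 to 993 against 883 to 1374 CPM, most of it from Slc1a2 (554 ± 211 against 850 ± 156 CPM) and Atp1b2 (106 ± 51.2 against 303 ± 45.4 CPM; SD, n = 4 and 5). Interneuron markers were lower in 6 of 7 tested and summed to 189 to 366 against 293 to 370 CPM, and oligodendrocyte markers in 5 of 5, with sums of 64.4 to 121 against 87.5 to 133 CPM and Mag at 0. Both vessel markers tested were higher, the list summing to 15.7 to 173 against 12.5 to 72.4 CPM, with Cldn5 and Vtn at 0. Microglial markers, 2 of 2 tested being lower, summed to 0.0560 to 3.18 against 2.21 to 19.04 CPM, with C1qa at 0 in all 9 silencing libraries. In bulk RNA fewer cells of a type and less RNA per cell cannot be told apart, and the part of these measures in the level of Dync1h1 was not tested. Dync1h1 overlaps exons of Gm17111 and Gm35558 on the opposite strand, and without a stated strand setting their reads cannot be told apart.

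Across the 18 libraries and 14367 genes tested in both experiments, the genes ranked most like Dync1h1 were Acaca (Spearman rho 0.936), Cacna1g (0.903), Clptm1 (0.870), Sirpa (0.868) and Aars (0.853). Acaca is the acetyl-CoA carboxylase of fatty acid synthesis, Cacna1g a T-type calcium channel and Aars an alanyl-tRNA synthetase. The 18 points share 2 experiments that differ in level, so these values are a description. Among the other subunits rho with Dync1h1 was 0.674 for Dctn1 and 0.422 for Dctn2, and -0.470 to -0.063 for the remaining 6.

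Dync1i1 (ENSMUSG00000029757, chr6:5725639-6028039, plus strand) is the intermediate chain made mainly in neurons. It stood at 63.5, 33.9, 44.8, 81.1 and 98.6 CPM with the scrambled shRNA and at 66.9, 25.6, 27.8 and 55.9 CPM with the Ptbp1 shRNA. The groups overlapped (log2 fold change -0.55, SE 0.42, adjusted p = 0.692 by edgeR). In overexpression it was 82.8, 104, 102 and 90.3 CPM with the control vector and 83.0, 85.0, 89.0, 84.5 and 82.6 CPM with the Ptbp1 vector. Of the 4 control libraries 3 were above all 5 others, but the change was small and not called (log2 fold change -0.16, SE 0.09, 95% interval -0.34 to 0.03, adjusted p = 0.974 by edgeR).

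Dync1i2 (ENSMUSG00000027012, chr2:71211706-71263303, plus strand) is the intermediate chain found in all tissues. In silencing it stood at 190, 266, 158, 209 and 157 CPM with the scrambled shRNA and at 79.5, 284, 129 and 102 CPM with the Ptbp1 shRNA. In the Ptbp1 shRNA group 3 of 4 libraries were below every scrambled one and replicate 2 was above them all (log2 fold change -0.40, SE 0.35, adjusted p = 0.739 by edgeR). In overexpression the control vector libraries were at 73.3, 163, 84.9 and 70.9 CPM and the Ptbp1 vector libraries at 69.8, 83.7, 82.7, 73.4 and 74.1 CPM. Control vector replicate 2 stood apart, the other 8 lying between 69.8 and 84.9 CPM. The log2 fold change of -0.35 (SE 0.21, adjusted p = 0.974 by edgeR) became 0.0073 without that library (adjusted p = 1.00).

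The high value of control vector replicate 2 came from the 5′ part of Dync1i2. Summed over bins 001 to 018 it held 165 CPM, against 27.5 to 48.9 CPM in the other 3 control libraries and 36.4 to 44.7 CPM in the 5 Ptbp1 vector libraries. Over bins 019 to 040 it held 60.4 CPM, within the 52.4 to 61.0 CPM of the other controls. The fall was spread over bins 015 to 019, with 888 reads in bin 015, 350 in bin 017 (the skipped 60-base exon shown above) and 136 in bin 019. The other controls had 150 to 200, 101 to 131 and 75 to 95 reads there. Bins 001 to 005, the most upstream transcript starts, had 305 reads in this library and 11 to 48 in the other controls, whereas bins 006 to 010, the neighbouring starts, had 51 reads against 38 to 69.

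**Figure D3:**
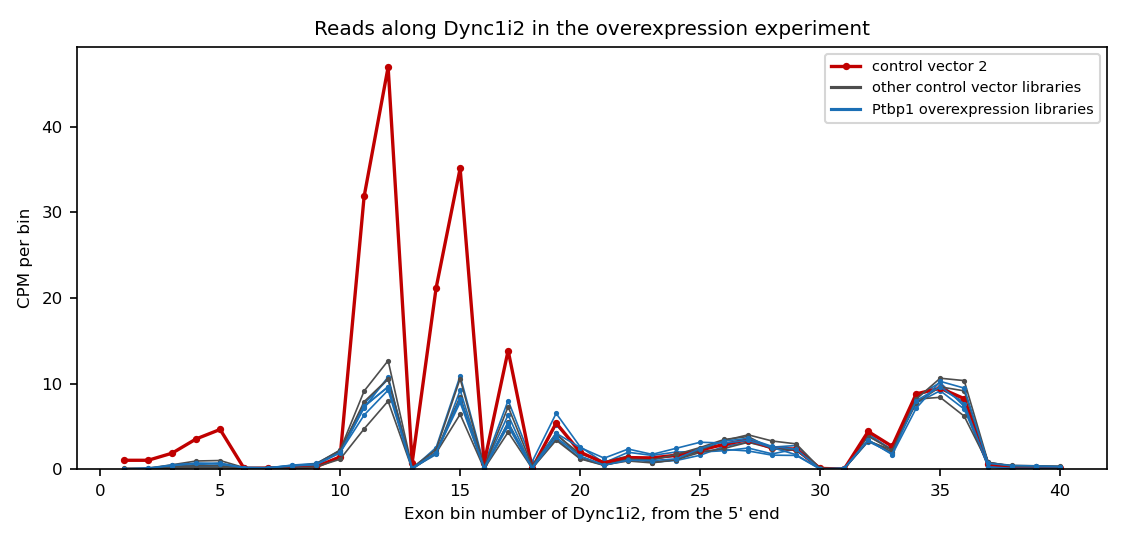
CPM per exon bin of Dync1i2 (vertical axis) against the bin number from the 5′ end in the 9 overexpression libraries, 1 line per library. Control vector replicate 2 rises above the other 8 in bins 001 to 005 and 011 to 017 and runs with them from bin 019 on.

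The same library set the only exon bin of the complex that came near a call. Bin 014 of Dync1i2, the 18-base exon shown above, took 2.24, 9.41, 2.08 and 2.22% of the reads over the gene's bins in control vector replicates 1 to 4. With the Ptbp1 vector it took 2.19, 2.46, 1.77, 2.02 and 1.99%. Apart from replicate 2, with 535 reads in the bin against 41 to 48 in the other controls, the groups overlapped. The relative usage differed by -0.94 on the log2 scale (adjusted p = 0.202 over 117580 bins, edgeR's diffSpliceDGE). It was -0.03 without control vector replicate 2 and -1.05 without control vector replicate 4, where the bin passed (adjusted p = 0.0212). Relative usage sets a bin against the rest of its gene.

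The light intermediate chains bind the cargo adaptors that start transport. Dync1li1 (ENSMUSG00000032435, chr9:114688790-114724302, plus strand) was the steadiest gene of the set in overexpression, at 94.6 to 99.5 CPM in the 4 control libraries and 92.2 to 107 CPM in the 5 Ptbp1 vector libraries (log2 fold change 0.03, SE 0.08, 95% interval -0.13 to 0.19, adjusted p = 0.981 by edgeR). In silencing it was spread over 33.6 to 198 CPM with the Ptbp1 shRNA and 40.2 to 106 CPM with the scrambled shRNA. The means were alike (90.9 ± 73.0 and 86.4 ± 26.6 CPM, SD, n = 4 and 5), but the log2 fold change of 0.07 (adjusted p = 0.976 by edgeR) became -0.64 without Ptbp1 shRNA replicate 1, the library at 198 CPM (adjusted p = 0.594).

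Dync1li2 (ENSMUSG00000035770, chr8:104417680-104443047, minus strand) ranged from 245 to 324 CPM with the control vector and from 258 to 347 CPM with the Ptbp1 vector (log2 fold change 0.04, SE 0.10, adjusted p = 0.981 by edgeR). In silencing it ranged from 104 to 348 CPM with the Ptbp1 shRNA and from 142 to 290 CPM with the scrambled shRNA (log2 fold change -0.12, SE 0.35, adjusted p = 0.942 by edgeR). The groups overlapped in both comparisons. Its exons overlap the antisense gene K230015D01Rik, whose reads cannot be told apart from its own.

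Dctn1 (ENSMUSG00000031865, chr6:83165920-83200117, plus strand) encodes p150Glued, the dynactin arm that holds the microtubule-binding CAP-Gly domain and contacts the intermediate chains. In silencing it stood at 10.8, 25.4, 25.9, 18.2 and 24.5 CPM with the scrambled shRNA and at 28.6, 46.5, 15.9 and 37.4 CPM with the Ptbp1 shRNA. In the Ptbp1 shRNA group 3 of 4 libraries were above every scrambled one and replicate 3 was within their range (log2 fold change 0.62, SE 0.44, adjusted p = 0.667 by edgeR). In overexpression it ranged from 135 to 176 CPM with the control vector and from 134 to 166 CPM with the Ptbp1 vector (log2 fold change -0.04, SE 0.10, adjusted p = 0.982 by edgeR). All 9 overexpression libraries were above all 9 silencing libraries, a gap between experiments that was not tested.

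Dctn2 (ENSMUSG00000025410, chr10:127266368-127281950, plus strand) encodes dynamitin, which joins the dynactin arm to its filament and whose excess takes dynactin apart. It stood at 203 to 230 CPM with the control vector and 209 to 263 CPM with the Ptbp1 vector (log2 fold change 0.11, SE 0.09, adjusted p = 0.974 by edgeR). In silencing it stood at 49.1 to 92.6 CPM with the scrambled shRNA and 35.8 to 129 CPM with the Ptbp1 shRNA (log2 fold change 0.11, adjusted p = 0.956 by edgeR). Like Dctn1, it was lower in every silencing library than in any overexpression library. Without Ptbp1 shRNA replicate 2, the library at 129 CPM, the silencing value was -0.40 (adjusted p = 0.759).

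Dctn4 (ENSMUSG00000024603, chr18:60526185-60558766, plus strand) encodes p62, a subunit of the pointed end of the dynactin filament. It ranged from 181 to 230 CPM with the control vector and from 184 to 216 CPM with the Ptbp1 vector (log2 fold change -0.03, SE 0.09, adjusted p = 0.983 by edgeR). In silencing it ranged from 156 to 311 CPM with the scrambled shRNA and from 170 to 326 CPM with the Ptbp1 shRNA (log2 fold change 0.14, SE 0.26, adjusted p = 0.903 by edgeR). The groups overlapped widely in both experiments.

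Pafah1b1 (ENSMUSG00000020745, chr11:74673949-74724670, minus strand) encodes LIS1, whose loss of function causes lissencephaly through failed neuronal migration. It was the most abundant of the 9 by CPM, at 991, 1294, 1061, 1070 and 1250 with the scrambled shRNA and at 1128, 1847, 2016 and 1331 with the Ptbp1 shRNA. In the Ptbp1 shRNA group 3 of 4 libraries were above every scrambled one. The log2 fold change was 0.48 (SE 0.20, 95% interval 0.05 to 0.91), with an unadjusted p of 0.0317 and an adjusted p of 0.391 by edgeR. An unadjusted p under 0.05 was found for 11.2% of all genes in silencing. In overexpression it stood at 573 to 668 CPM with the control vector and 555 to 621 CPM with the Ptbp1 vector (log2 fold change -0.09, SE 0.07, adjusted p = 0.974 by edgeR).

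**Figure D4:**
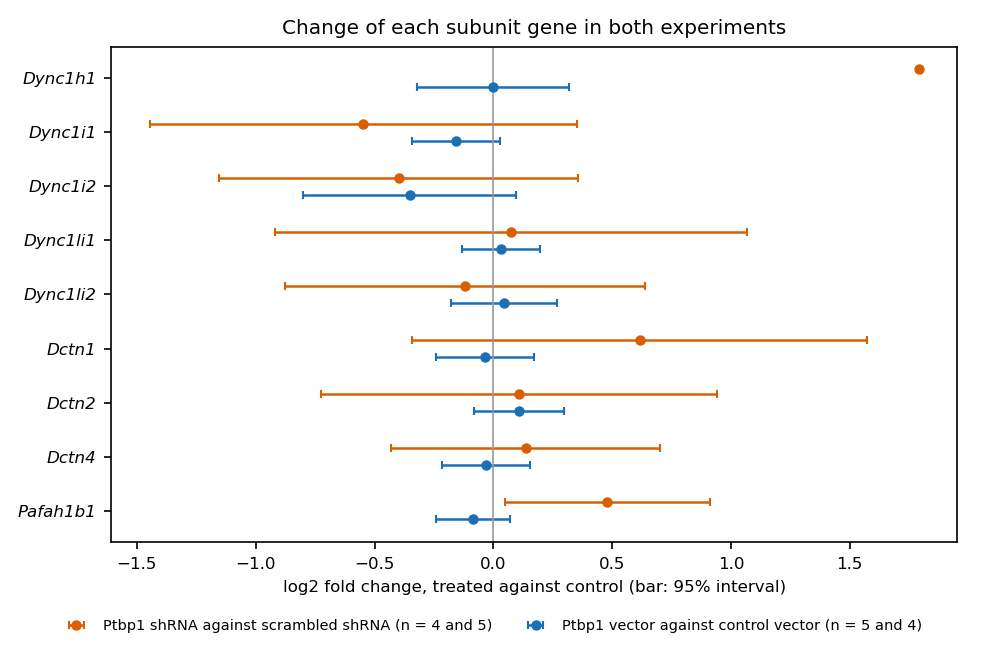
Log2 fold change of each gene with its 95% interval (horizontal axis), Ptbp1 shRNA against scrambled shRNA in orange and Ptbp1 vector against control vector in blue. Intervals are wider in silencing, and Dync1h1 in silencing (1.79), the value that chose the set, is drawn as a point without an interval.

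Per kilobase of exon the subunits were ordered differently in both experiments. With the control vector Dctn2 was highest at 119 ± 6.96 RPKM, followed by Pafah1b1 at 95.5 ± 6.04, Dync1li2 at 64.0 ± 7.69 and Dctn4 at 55.5 ± 5.82 (SD, n = 4). Dync1li1 (37.3 ± 0.793), Dync1i2 (34.5 ± 15.4), Dync1i1 (31.9 ± 3.31) and Dctn1 (31.6 ± 3.53) followed, and Dync1h1 was lowest at 16.01 ± 3.10 RPKM. Dync1li2 and Dctn4 overlapped, as did each neighbouring pair from Dync1li1 to Dctn1, while the other steps of the order did not overlap. The place of Dync1i2 and its overlap with Dync1li1 rested on control vector replicate 2 at 57.3 RPKM. The next highest control library of Dync1i2 was at 29.9 RPKM. Dync1li1, at 36.4 to 38.2 RPKM, lay above every control library of Dync1i1 (27.9 to 34.9) and Dctn1 (26.6 to 34.8). With the Ptbp1 vector Dync1li1 did not overlap the next gene, and Dync1i2 ranked below Dctn1 and Dync1i1.

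With the scrambled shRNA Pafah1b1 was highest at 174 ± 20.1 RPKM, then Dync1i2 at 69.1 ± 15.9, Dctn4 at 62.7 ± 17.4, Dync1li2 at 48.7 ± 16.4 and Dctn2 at 35.7 ± 10.3 (SD, n = 5). Dync1li1 followed at 33.2 ± 10.2 and Dync1i1 at 21.7 ± 8.86 RPKM. Dctn1 at 4.14 ± 1.27 and Dync1h1 at 3.85 ± 0.877 RPKM came last. The steps after Pafah1b1 and before Dctn1 did not overlap, and all other neighbours did. With the Ptbp1 shRNA Dync1h1 was at 13.3 ± 7.13 and Dctn1 at 6.34 ± 2.58 RPKM (n = 4).

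Exon usage of the complex was tested over all bins of each experiment. In overexpression 246 of the 287 bins were deep enough and none was called, where 0.034% of 117580 bins were. An unadjusted p under 0.05 was found for 3 of the 246 (1.22%), all in Dync1i2 and lower, beside 1.38% of all bins. In silencing 210 bins were tested and none was called, where 0.0012% of 83164 were. An unadjusted p under 0.05 was found for 9 of the 210 (4.29%), 7 higher and 2 lower, beside 1.98% of all bins. Dync1h1, whose silencing level chose the set and whose coverage was patchy, held 4 of the higher and the 2 lower ones. The rest lay in Dync1i1 (2) and Dctn1 (1), so the share is not a trait of the whole complex. The median size of a usage change over the tested bins of the complex was 0.48 on the log2 scale in silencing, beside 0.34 over all bins, and 0.08 in overexpression, beside 0.09.

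Groups whose usage did not overlap were found for 1 bin with higher and 1 with lower usage under the Ptbp1 vector among the 246, beside 0.843% and 0.832% of all bins. The higher one was bin 012 of Dync1li1, a coding stretch of 153 bases near the 3′ end of the reading frame. It took 5.13, 3.69, 5.07 and 4.004% of the gene's reads with the control vector and 5.30, 6.07, 6.29, 5.29 and 5.36% with the Ptbp1 vector. The gap was narrow and not called (log2 relative usage 0.24, unadjusted p = 0.0887, adjusted p = 1.00, edgeR's diffSpliceDGE). The lower one was bin 016 of Pafah1b1, an untranslated stretch, at 0.382% ± 0.0847 against 0.502% ± 0.0351 (SD, n = 5 and 4). Both bins were singled out for their values, bin 016 outside the rule for naming bins.

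For each of the other members the overexpression bin with the smallest p lay within overlapping groups. These were bin 004 of Dync1h1 (log2 relative usage -0.32), bin 005 of Dync1i1 (0.24), bin 008 of Dync1li2 (-0.15), bin 025 of Dctn1 (-0.24), bin 004 of Dctn2 (-0.08), bin 009 of Dctn4 (-0.15) and bin 003 of Pafah1b1 (-0.48, with 1 to 18 reads per library). Their adjusted p was 1.00 by diffSpliceDGE. No subunit thus showed a bin that both stood clear of the spread and passed the test.

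In silencing Ptbp1 shRNA replicate 2 had the highest value at each of the 3 bins named by smallest p. Bin 021 of Dync1h1 took 12.1% of the gene's reads in Ptbp1 shRNA replicate 2 and 0.0744 to 0.425% in the other 8 libraries (log2 relative usage 2.40, adjusted p = 1.00 by diffSpliceDGE). Without that library the value was -0.14. Bin 014 of Dync1i1 took 1.26, 10.5, 3.36 and 0.785% with the Ptbp1 shRNA and 0 to 0.920% with the scrambled shRNA (log2 relative usage 2.22, and 1.49 without replicate 2). Bin 025 of Dctn1 took 2.43, 9.89, 0.314 and 3.97% against 0.0727 to 1.73% (1.91, and 1.26 without replicate 2). At both of these bins 3 of the 4 Ptbp1 shRNA libraries were above every scrambled one and the sign held under each alternative run, but neither was called (adjusted p = 1.00 by diffSpliceDGE). Usage that did not overlap was found for 3 bins higher and 1 lower among the 210, beside 0.616% and 0.847% of all bins. The higher ones were bins 001 and 002 of Dctn2 and bin 089 of Dync1h1, and the lower one was bin 067 of Dync1h1, named here for their values. Both Dctn2 bins were shallow, with 0 to 17 reads per scrambled library and 10 to 45 per Ptbp1 shRNA library.

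The alternative exons shown above were read as the bin's count in percent of the mean count of its flanking bins. This is not the share of transcripts with the exon, since a read counts in every bin it touches and the bins differ in length, so values are compared between groups and not between bins. Bin 017 of Dync1i2 was at 85.7% ± 12.7 with the control vector and 88.9% ± 3.82 with the Ptbp1 vector (SD, n = 4 and 5), and at 91.6% ± 6.93 and 87.9% ± 12.9 with the scrambled and Ptbp1 shRNA (n = 5 and 4). Its counterpart in Dync1i1, bin 013, was at 76.5% ± 8.67 with the control vector and 66.1% ± 9.99 with the Ptbp1 vector. Bin 014 of Dync1i2, of 18 bases, was at 19.6 to 26.2% in 3 control libraries, 51.6% in replicate 2 and 17.3 to 23.2% with the Ptbp1 vector.

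The 3 short exons of Dctn1 encode a basic stretch next to the CAP-Gly domain that adds to microtubule binding. Bin 011 was at 64.0% ± 10.9 with the control vector and 66.9% ± 8.25 with the Ptbp1 vector (SD, n = 4 and 5). Bin 013 was at 73.4% ± 5.13 and 58.1% ± 9.90, with 68.1 to 79.5% in the controls and 46.7 to 69.6% with the Ptbp1 vector, so that the groups met at their edges. Bin 012, a transcript start that abuts bin 013, had 21 to 70 reads per overexpression library, and reads from that start add to bin 013. Bin 014 was at 82.0% ± 7.51 and 75.9% ± 3.21. None of these bins was called in the test of usage. In silencing the 3 bins had 6 to 25 reads per group in all, too few to compare.

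**Figure D5:**
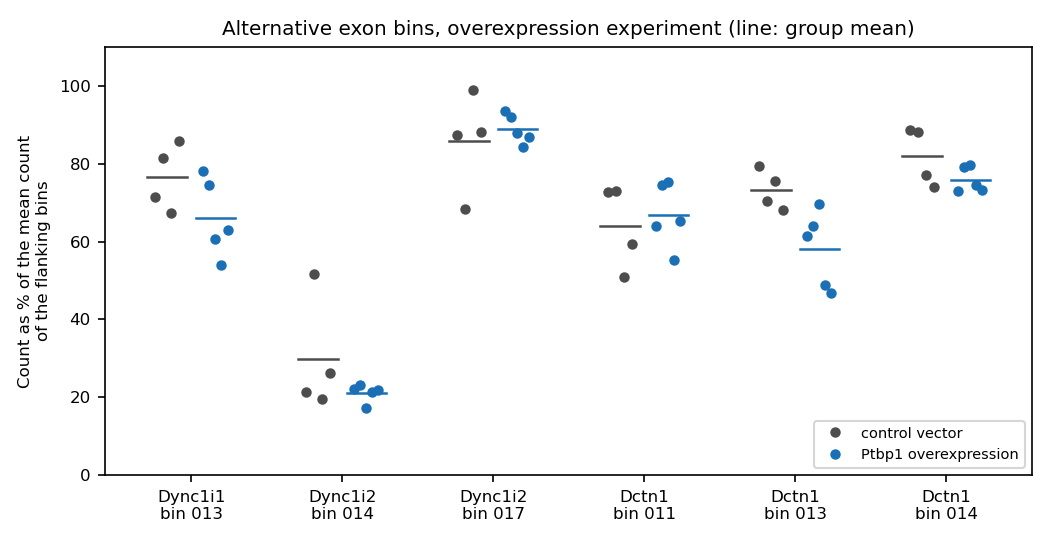
Count of 6 alternative exon bins in percent of the mean count of their flanking bins (vertical axis), control vector in grey and Ptbp1 vector in blue; points are libraries and lines are group means. Groups overlap for each bin, and the high point of Dync1i2 bin 014 is control vector replicate 2.

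The other genes of the pathway were read from a list of 55: light chains, further dynactin subunits, regulators and adaptors, the heavy and light intermediate chain of ciliary dynein 2, and axonemal heavy chains. In silencing 47 were tested and none was called, with 25 higher, 22 lower and a median log2 fold change of 0.03. An unadjusted p under 0.05 was found for 5 higher and 2 lower genes, where 5.76% and 5.42% of all genes lay. In overexpression 52 were tested and none was called, with 33 higher, 19 lower and a median of 0.06, and 4 higher and 1 lower had an unadjusted p under 0.05, where 2.79% and 1.99% of all genes lay. Counts of the light chains Dynlt1a, Dynlt1b, Dynlt1c and Dynlt1f are uncertain, since these near-identical copies share reads.

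In silencing the smallest p belonged to Clip1, a protein that tracks growing microtubule ends and recruits dynactin there. It averaged 520 ± 120 CPM with the Ptbp1 shRNA and 254 ± 38.2 with the scrambled shRNA (SD, n = 4 and 5; log2 fold change 1.04, SE 0.21, adjusted p = 0.0816 by edgeR). The light chain Dynlt3 averaged 404 ± 140 against 769 ± 55.2 CPM (log2 fold change -0.93, adjusted p = 0.144 by edgeR). Hook1, an adaptor that links dynein to endosomes, averaged 105 ± 14.8 against 53.6 ± 10.7 CPM (log2 fold change 0.97, adjusted p = 0.195 by edgeR). The groups of these 3 genes did not overlap, nor did those of the light chain Dynll1 at 278 ± 49.1 against 414 ± 34.8 CPM, which was named for its values. Of the 47 genes this made 2 higher and 2 lower, beside 2.39% and 2.45% of all genes.

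In overexpression the smallest p belonged to axonemal heavy chains, motors of motile cilia, at low levels. Dnah6 averaged 1.24 ± 1.14 CPM with the Ptbp1 vector and 0.179 ± 0.146 with the control vector (SD, n = 5 and 4; log2 fold change 2.75, adjusted p = 0.776 by edgeR). Dnah11 averaged 1.12 ± 0.299 against 0.461 ± 0.243 CPM and Dnah1 9.50 ± 1.80 against 6.67 ± 1.22 CPM (log2 fold changes 1.26 and 0.51, adjusted p = 0.958 and 0.974 by edgeR). Of the 9 axonemal heavy chains tested, 7 were higher and 2 lower. Among the further dynactin subunits 3 of 9 were higher and 6 lower, with a median of -0.0062.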

How the data were processed

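The authors deposited raw counts: 1 gene table per experiment, keyed by Ensembl identifier, and 1 exon bin file per library. STAR 2.5.3a and HTSeq are named with build mm10 in the submitters' processing notes. No source used here gives the annotation release or the strand setting. Bin coordinates were rebuilt from GENCODE M21. For 90% of the 34660 single identifiers found there, and for all 9 members, the number of bins matched. The 5 lines of totals that end each exon file were left out.

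Groups came from the treatment labels. Replicate numbers only name libraries. The members and the pathway and marker lists were chosen with earlier results of these data known. Each experiment was fitted with edgeR 4.0.16 in R 4.3.3 (filterByExpr, TMM, robust quasi-likelihood F test, Benjamini-Hochberg over all genes at 0.05), bins with diffSpliceDGE. The difference of responses used 4 group means over 18 libraries. SE is the log2 fold change over the root of F. RPKM divides by the length of coding and untranslated bins. Stretches of a gene were compared as mean log2(CPM + 0.5). The gene fit and the bin fit of each experiment were run on simulated counts with known changes, and the other steps were not. DESeq2 1.42.0, limma 3.58.1 voom with quality weights, RLE scaling, other filters, a shared spread and leaving out libraries were the alternatives.

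The text names all members, Ptbp1, the 3 pathway genes with the smallest p per experiment, the bin with the smallest p of each member in overexpression and of 3 members in silencing, and the 5 genes most like Dync1h1. A left-out library or other choice made after the data were seen is marked as such.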

Additional observations from a re-analysis of the deposited data

Results flagged for a closer look

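In 36 groups of gene levels and 24 of bin usage, the highest or lowest library was set against the rest of its group. Its gap to the nearest library, as a share of the range, exceeded Dixon's 95% critical value in 6 groups. Chance passes this limit in about 1 in 20 groups of normally spread values. That rate does not apply to the bins, which were picked by p in these libraries, nor to Dync1h1 in silencing.

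Dync1i2 was at 162.7 CPM in control vector replicate 2, beside 70.9 to 84.9 in the other 3 control libraries, and its bin 014 took 9.41% of the gene's reads in the same library, beside 2.08 to 2.24%. The gene's level in that library was raised over the 5′ part. Within that part bin 014 was also high, at 51.6% of its flanking bins beside 19.6 to 26.2% in the other 3 control libraries. The cause was not tested. Dync1li1 was at 40.2 CPM in scrambled shRNA replicate 2, beside 89.7 to 106.5 in the other 4. Bin 021 of Dync1h1 took 12.1% in Ptbp1 shRNA replicate 2, beside 0.0744 to 0.405% in the other 3 of its group. Bin 005 of Dync1i1, an untranslated stretch at the 5′ end, took 4.90% in Ptbp1 overexpression replicate 2, beside 2.48 to 3.08% in the other 4. Bin 008 of Dync1li2 took 5.00% in Ptbp1 overexpression replicate 4, beside 3.87 to 4.19%.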

How the results depend on the processing

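No paired analysis was possible because no 2 libraries of an experiment share a number in their titles. Calls of Dync1h1 in silencing and in the difference of responses rest on the values that chose the set, so they are no tests and support nothing. With that limit, 1 of the 9 members (Dync1h1) passed in silencing by DESeq2, beside 426 of 14656 genes. When the 18 libraries shared 1 spread 2 members passed (with Pafah1b1), beside 1775 of 17779 genes. That spread was pooled over both experiments, whose own coefficients of variation were 0.901 (silencing) and 0.223 (overexpression). None was called in overexpression under any alternative run. For the difference of responses the count was 1 (Dync1h1) with RLE scaling and 0 to 1 on leaving out each library, Dync1h1 again without any one of Ptbp1 shRNA replicates 1 to 4 or scrambled shRNA replicates 4 and 5. In the reported fit 0.225% of 17779 genes passed for this difference, and the share in the other runs was not counted. Genes called in silencing numbered 0 in the reported fit (1639 at an unadjusted p under 0.05), 426 by DESeq2, 11 without a filter, 84 by voom, 1775 with a shared spread and 0 to 5 on leaving out each library. In overexpression, 7 in the reported fit, they numbered 40 by DESeq2 and 0 with a shared spread. Bins called in silencing, 1 in the reported fit, numbered 5 among bins with a mean of 50 counts, 9 by voom with diffSplice, 0 to 3 on leaving out each library and 0 without the 2 least even libraries. Member bins called in overexpression were 0 to 1 on leaving out each library.

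Reversals of direction occurred only in values near 0 or set by a single library, and none was called. With voom Dctn2 was at -0.11 in silencing, and Dync1h1 at 0.032, Dync1li2 at -0.012 and Dctn4 at 0.023 in overexpression. Dync1h1 in overexpression was 0.0023 by DESeq2, 0.0021 with RLE scaling and 0.00039 with a shared spread, and the difference of responses of Dctn2 -0.012 with RLE scaling. Without the 2 least even libraries Dctn2 was at -0.22 and Dctn4 at -0.00049 in silencing, and bin 021 of Dync1h1 at -0.14. On leaving out each library in turn, log2 fold changes in silencing ran from -0.40 to 0.32 for Dctn2, -0.64 to 0.34 for Dync1li1, -0.00079 to 0.29 for Dctn4 and -0.50 to 0.0995 for Dync1li2. In overexpression they ran from -0.12 to 0.082 for Dync1h1, -0.036 to 0.090 for Dync1li2, -0.092 to 0.023 for Dctn4, -0.11 to 0.014 for Dctn1, -0.0068 to 0.049 for Dync1li1 and -0.48 to 0.0073 for Dync1i2. The difference of responses ran from -0.21 to 0.51 for Dctn2, -0.16 to 0.58 for Dync1i2, -0.31 to 0.68 for Dync1li1 and -0.043 to 0.55 for Dync1li2, and the usage of bin 021 of Dync1h1 from -0.14 to 2.86. The cause of these moves was not tested.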
